A study of Homo sapiens with 4 samples.

Results

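The comparison set FBP1-expressing Hs578T cells against control Hs578T cells, and it used 2 of the 4 arrays of the series, 1 array a side. Hs578T is an established human breast cancer line that the labels class as basal-like. The FBP1 group consisted of stable clones selected after FBP1 was expressed in the line, and the labels call the other group control cells. How many clones were taken, which vector was used and whether the control cells carried an empty vector are not given in the sources used here. Both groups were grown in DMEM/F12 with 10% FBS and harvested in logarithmic growth, and total RNA was labelled with biotin for Affymetrix arrays. The other arrays came from control and FBP1-expressing MDA-MB231 cells, a second line with the same label, and serve here only for values side by side.

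FBP1 encodes fructose-1,6-bisphosphatase, the gluconeogenic enzyme that removes a phosphate from fructose-1,6-bisphosphate and so opposes phosphofructokinase. Glycolysis and gluconeogenesis share most of their enzymes, and this step is one of the few that run in opposite directions through different proteins. The question was which transcripts differed in cells that expressed the enzyme.

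Genes were the unit of description. Of 18417 genes with a probe set annotated to that gene alone, 15946 had a mean level over the 4 arrays at or above the filter level, a log2 expression of 6.16, which is the 25th percentile of all probe set means. Changes are the FBP1 array minus the control array on the log2 scale, so that 1 is 2-fold higher and −1 is 2-fold lower. With 1 array a side no difference had a replicate check, no test was possible, and every gene is described by size alone. Because each side was 1 culture, a difference made by FBP1 cannot be told apart from one between clones or cultures.

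The line was first checked against its markers. Of 9 basal-like markers, 4 had a probe set of their own. EGFR (10.63 in the control array and 10.84 in the FBP1 array) and KRT14 (8.85 and 9.62) lay above the median of the arrays, 7.83 and 7.84. KRT5 (6.84 and 6.89) and the P-cadherin gene CDH3 (6.94 and 7.17) lay below it. All 8 mesenchymal markers lay above the median, among them VIM (13.72 in both arrays) and FN1 (14.21 and 14.13), as did 8 of 9 fibroblast markers. Luminal markers were mixed, with 6 of 10 above the median: the keratin gene KRT18 (12.33 and 12.71), XBP1 (12.17 and 12.09), KRT8 (9.58 and 9.80), FOXA1 (8.33 and 8.50), GATA3 (8.12 and 8.22) and KRT19 (7.92 and 8.23), while the estrogen receptor gene ESR1 (6.74 and 6.80) was below it. Of 6 epithelial markers only CLDN3 (8.57 and 8.60) lay above the median. The cadherin gene CDH1 (6.53 and 6.34) was below it and slightly lower with FBP1, whereas the claudin genes CLDN4 (7.33 and 7.85) and CLDN7 (6.59 and 7.01) were higher. Mesenchymal and fibroblast markers were thus the most complete lists, and the basal-like and luminal lists were each present in part. Of 7 leukocyte markers with a probe set, 4 lay under the filter level on both arrays, including PTPRC (4.52 and 4.96), which encodes the pan-leukocyte protein CD45. CD14 (7.41 and 7.44) and ITGAM (6.87 and 6.91) lay above that level and below the median, and CD68 (11.21 and 10.99), a lysosomal protein gene, lay above both.

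FBP1 itself checked the construct. Its log2 expression was 6.35 in the control array and 13.35 in the FBP1 array, a change of 7.0, or 128-fold. The control value stood just above the filter level, so the size of the fold is uncertain, but on the FBP1 array the transcript was among the bright ones. Other gluconeogenic genes did not follow it: PC, pyruvate carboxylase, differed by 0.15, PCK1 by 0.08 and PCK2 by −0.12, the last encoding the mitochondrial phosphoenolpyruvate carboxykinase.

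Of the 15946 genes, 46 were at least 2-fold higher with FBP1 (0.288%) and 73 at least 2-fold lower (0.458%). At 1.5-fold the counts were 222 higher (1.39%) and 269 lower (1.69%). The median change over all genes was 0.02, and 54.9% of genes were above 0. That share was taken for Hs578T only, so counts above or below 0 in MDA-MB231 have no such share beside them. Of 5 equal groups of genes by control level, the brightest held no gene that was 2-fold higher and 4 that were 2-fold lower, while the dimmest held 14 and 8. None of the 46 higher genes was below the filter level on the control array, and 9 of the 73 lower genes were below it on the FBP1 array, so that their folds rest on a dim value. The 2-fold line was not a gap. RHOJ (1.00), SH3RF2 (1.01) and GPRC5A (1.02) lay just inside it and PER2 (0.99), S100A3 (0.99) and ARHGDIB (0.97) just outside. On the lower side BCL2L11, CCDC102B and ZDBF2 (each −1.0) lay just inside and ZNF528 (−0.99), ATL1 (−0.99) and CAB39L (−0.98) just outside.

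**Figure D1:**
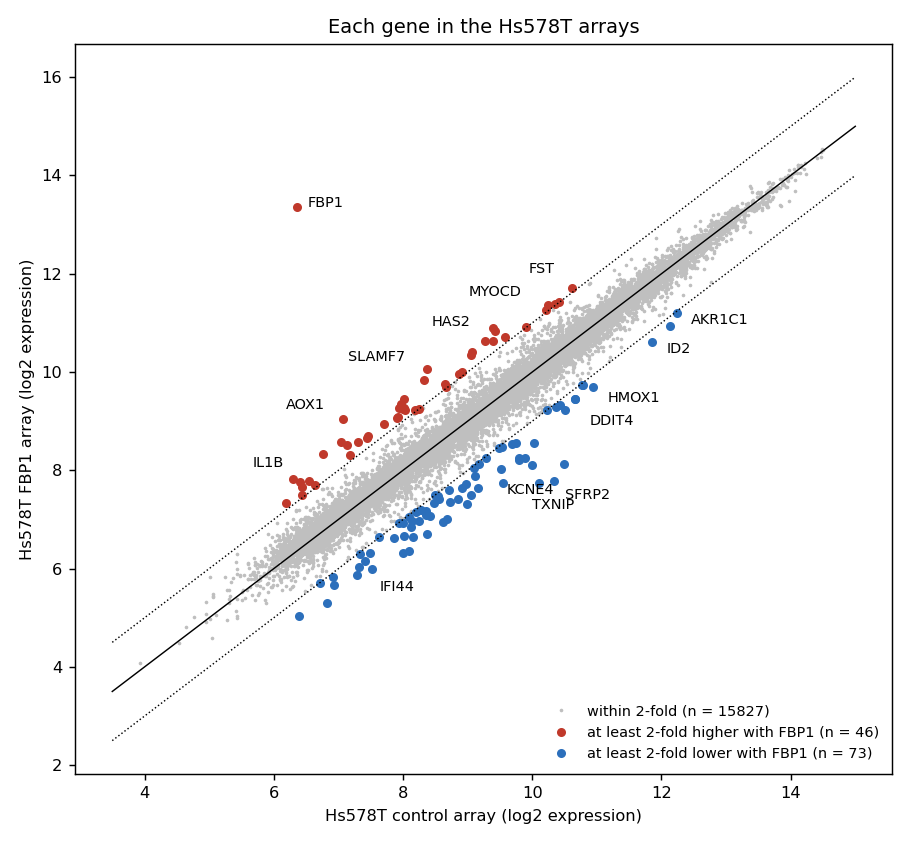
Log2 expression of each of the 15946 genes in the Hs578T control array (horizontal axis) and the Hs578T FBP1 array (vertical axis). The solid line marks equal levels and the dotted lines 2-fold differences; the 46 higher genes are red, the 73 lower genes blue, and FBP1 stands alone at 6.35 and 13.35.

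The most uniform group of lower genes was the beta protocadherin cluster on chromosome 5. Protocadherins are cadherin-like surface proteins, and the clustered alpha, beta and gamma genes lie side by side, are chosen in combinations by individual neurons and give cells an adhesive identity. Their promoters share a conserved element and bind the looping factor CTCF. All 17 beta genes and pseudogenes that passed the filter, of 18 with a probe set, were lower in the FBP1 array, with a median of −1.14. At least 2-fold lower were 13 of them, against 0.458% of all genes. Those 13 made up 13 of the 73 genes that were 2-fold lower.

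The promoters of these genes are shown because the members differed in the same direction. RefSeq (GRCh38.p14) gave a 300-base promoter, from 250 bases before the start to 50 after it, for 13 of the 17. The letters GGTGGCGCT, searched on both strands, were found as the 9 that most of these promoters share, so their presence in all 13 is a description and comes from the search itself. The same letters occurred in 0.501% of the 35116 promoters in the table and in 0.946% of genes that passed the filter and have a promoter. Over all such genes, those with the letters had a median change of −0.01 and those without 0.02. The promoter of PCDHB1, the only member under the filter level (4.95 and 5.16), did not hold the letters. It took no part in the search that chose them, so it is not a control for the other 13. The matches of 6 of the genes with the largest decreases and a match wholly before the start are given, all on the plus strand, 5′ to 3′, with the shared letters in capitals.
PCDHB15 at chr5:141245303-141245355: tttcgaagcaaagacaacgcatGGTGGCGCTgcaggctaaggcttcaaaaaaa
PCDHB2 at chr5:141094533-141094585: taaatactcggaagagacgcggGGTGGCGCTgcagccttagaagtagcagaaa
PCDHB16 at chr5:141182299-141182351: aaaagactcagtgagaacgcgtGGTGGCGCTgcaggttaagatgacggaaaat
PCDHB5 at chr5:141135168-141135205: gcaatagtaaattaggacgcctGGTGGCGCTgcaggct
PCDHB9 at chr5:141187063-141187115: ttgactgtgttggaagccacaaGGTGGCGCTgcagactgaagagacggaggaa
PCDHB10 at chr5:141192288-141192340: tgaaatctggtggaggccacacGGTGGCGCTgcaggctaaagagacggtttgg
The letters gcag follow the match in each of these promoters, and the match ended between 8 and 68 bases before the start. A match says nothing about whether a factor binds there.

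PCDHB6 was 8.0 in the control array and 6.31 in the FBP1 array, a change of −1.69 and the largest in the cluster. PCDHB15 was 8.98 and 7.32 (−1.67). PCDHB2 was 9.80 and 8.21 (−1.59). These genes were at moderate levels in control Hs578T cells and nearer to the filter level with FBP1. PCDHB5, the brightest of them, was 10.02 and 8.56 (−1.46). PCDHB8 was 6.82 and 5.30 (−1.52), a change that became −0.66 when both arrays were held at the filter level. The smallest decreases were those of PCDHB13 (7.81 and 6.97, −0.84) and the pseudogene PCDHB17P (7.26 and 6.69, −0.56). The neighbours on either side in the cluster did not share the pattern: the 11 alpha genes had a median of 0.01, with PCDHA10 (8.50 and 7.78, −0.71) the only one past 1.5-fold. PCDHGB4, the only gamma gene with a probe set of its own, was 9.75 and 10.48, a change of 0.73. The 7 protocadherin genes outside the clusters had a median of 0.03. Beta protocadherins are similar in sequence and probes may bind several of them, so the 17 values are not 17 independent measurements.

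**Figure D2:**
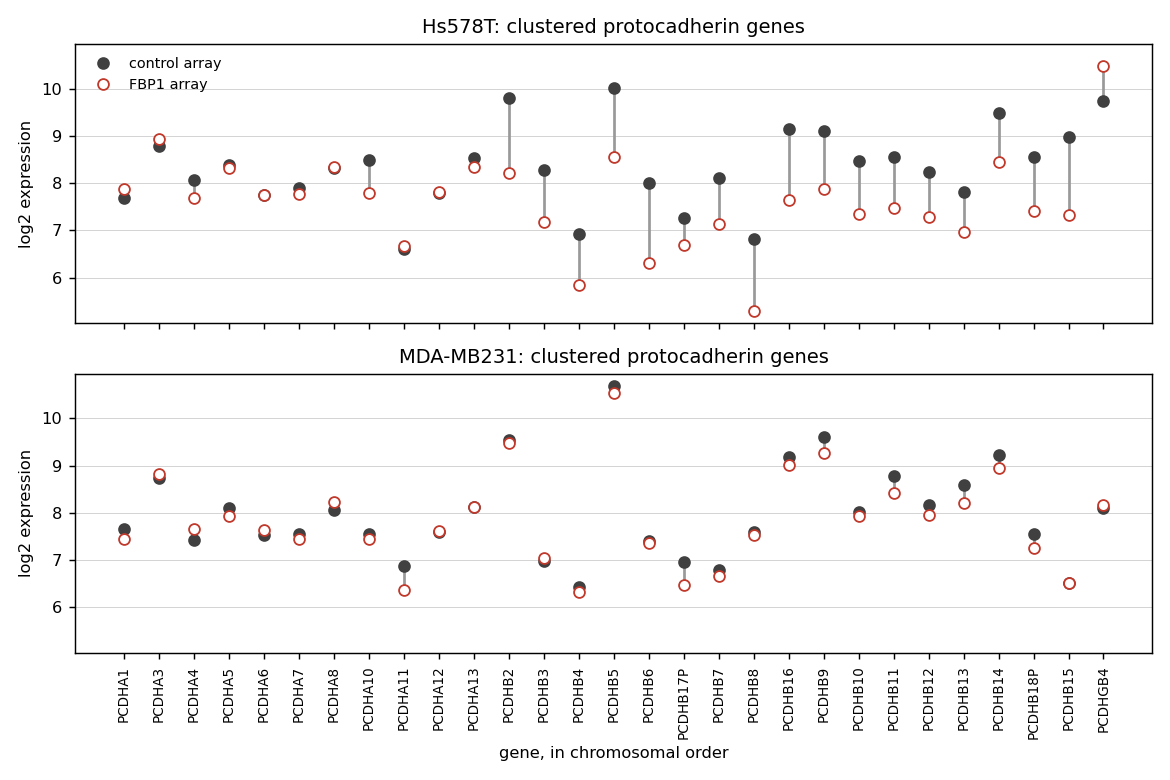
Log2 expression of the clustered protocadherin genes in chromosomal order, in Hs578T (top) and MDA-MB231 (bottom), with filled points for the control array and open points for the FBP1 array. In Hs578T every beta gene has its open point below its filled point, with changes from −0.56 to −1.69, while in MDA-MB231 the pairs lie close together.

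In MDA-MB231 the same 17 genes had a median change of −0.14, and 16 of 17 were below 0, none by 1.5-fold. PCDHB5 was 10.68 and 10.54 there and PCDHB2 9.54 and 9.48. In the control arrays PCDHB2 was thus at a like level in both lines (9.80 in Hs578T). PCDHB5 was higher in MDA-MB231 than in Hs578T (10.02), and PCDHB15 was lower (6.51 in MDA-MB231 and 8.98 in Hs578T). These contrasts between lines have no test.

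Among genes that report on glucose, TXNIP had the third largest decrease of all. TXNIP encodes a thioredoxin-binding protein that restrains glucose uptake, and it is the best known target of MondoA and ChREBP, factors that respond to phosphorylated sugars. It was 10.10 in the control array and 7.74 in the FBP1 array, a change of −2.37. ARRDC4, its arrestin-like paralogue and another MondoA target, was 8.43 and 7.61 (−0.82). ARRDC3, a further arrestin-like gene, was 12.44 and 11.76 (−0.68). The 6 targets of the list had a median of −0.53, and 3 were 1.5-fold lower, against 1.69% of all genes. The factors themselves, MLXIP (0.08), MLX (0.20) and MLXIPL (−0.22), stayed within 1.5-fold. An E-box, CACGTG, part of the element these factors bind, occurred in 7.26% of all promoters, in 11.6% of genes that passed the filter and have a promoter, and in 2 of the 8 genes of the list with a promoter. These were ARRDC4 and MLX, of which MLX was not lower. The stretch of the lower one is shown, on the plus strand of GRCh38.p14, with the E-box in capitals.
ARRDC4 at chr15:97960471-97960520: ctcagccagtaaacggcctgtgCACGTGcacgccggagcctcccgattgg
TXNIP was lower in MDA-MB231 as well, at 12.29 and 11.70 (−0.59), and ARRDC4 differed by −0.05 there.

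The glycolytic enzymes lay close to 0. The 19 enzymes of the list had a median of −0.02 and none reached 1.5-fold in either direction; GAPDH was 14.49 and 14.53. Glucose transporter genes differed more. SLC2A3, the high-affinity transporter GLUT3, was 8.60 and 7.65 (−0.96). SLC2A12 was 8.96 and 8.39 (−0.57) and SLC2A1, the common transporter GLUT1, was 12.06 and 12.36 (0.31). PDK4, the kinase that closes the pyruvate dehydrogenase gate to glucose carbon, was 8.98 and 8.24 (−0.74), the only one of 19 fatty acid oxidation genes past 1.5-fold. Of 14 citric acid cycle genes 11 were above 0, with a median of 0.05 and SUCLG2 (0.50) the largest. Mitochondrial ribosomal protein genes leaned up, 63 of 74 above 0 with a median of 0.10, and the 34 complex I genes had a median of 0.02.

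Lipid synthesis genes were slightly higher. Of 21 cholesterol synthesis genes 17 were above 0, with a median of 0.19, and none reached 1.5-fold. ACAT2 was 10.67 and 11.14 (0.47), FDPS 9.88 and 10.19 (0.31) and LSS 10.26 and 10.56 (0.29). Fatty acid synthesis genes had a median of 0.17, with SCD5 (0.40), FADS2 (0.35) and FASN (0.23) above 0 and GPAM, which starts triglyceride assembly, at −0.44. In the other line the same lists lay on the other side of 0, with medians of −0.51 and −0.23. There 7 and 2 genes were at least 1.5-fold lower, against 0.326% of all genes. There was no test of the difference between lines.

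The NRF2 programme was the largest metabolic list with lower genes. NRF2, encoded by NFE2L2, is the transcription factor that answers oxidants by raising glutathione, thioredoxin, iron-handling and detoxification genes through antioxidant response elements. Of the 47 listed genes that passed the filter 38 were lower with FBP1, the median was −0.29, 11 were at least 1.5-fold lower (1.69% of all genes were) and none was 1.5-fold higher. NMRAL2P, a pseudogene known as an NRF2 target, was 10.49 and 8.13 (−2.37), the second largest decrease of any gene. HMOX1, which degrades heme, was 10.94 and 9.69 (−1.26). AKR1B10, an aldo-keto reductase, was 8.35 and 7.09 (−1.27). These 3 genes each differed by more than 2-fold, and HMOX1 started from a high level.

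Other arms of the programme were lower too. SRXN1, sulfiredoxin, was 11.96 and 11.16 (−0.81), and EPHX1, the microsomal epoxide hydrolase, 11.37 and 10.50 (−0.87). The thioredoxin arm of 5 genes was below 0 throughout, with a median of −0.54, and the 10 glutathione genes had a median of −0.36. AKR1C1 (12.24 and 11.21, −1.03), AKR1C2 (10.86 and 9.99, −0.87) and AKR1C3 (10.26 and 9.33, −0.93) are near-identical and stand side by side with AKR1E2 (−0.85) on chromosome 10, so they are not separate measurements; the mean over the probe sets of AKR1C1 gave −0.40. The NADPH-making genes of the list differed least, with a median of −0.12. NFE2L2 itself was 12.06 and 11.64 (−0.42) and its inhibitor KEAP1 10.47 and 10.35 (−0.12). In MDA-MB231 the list had a median of 0.03 and no gene past 1.5-fold; how the lines differed was not tested.

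The core of the antioxidant response element, TGACNNNGC on either strand, occurred in 13.3% of all promoters, in 19% of genes that passed the filter and have a promoter, and in 14 of the 37 NRF2 programme genes with a promoter. Members with a match had a median change of −0.16 and the 23 without one −0.44. Whether a match goes with the size of the change was not tested. Only the promoter stretch around each start was searched, so a member counted as without a match may hold the core elsewhere. A gene can have several promoters in the table, and a match in any of them was counted. The members with a match before a start and the largest decreases were EPHX1 at one of its 3 promoters, GCLM (10.86 and 10.18, −0.68), a subunit of the enzyme that starts glutathione synthesis, and TXNRD1 (12.06 and 11.44, −0.62), thioredoxin reductase. MGST1 (−0.39), IDH1 (−0.30) and GSTP1 (−0.18), with smaller decreases, also held a match. So did MAFF (0.50), GSTM1 (0.40) and GPX2 (0.05), which were above 0. The first 3 matches are shown 5′ to 3′ with the core in capitals, GCLM on the minus strand and the others on the plus strand of GRCh38.p14.
EPHX1 at chr1:225825254-225825306: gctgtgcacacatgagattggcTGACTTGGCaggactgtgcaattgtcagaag
GCLM at chr1:93909434-93909486: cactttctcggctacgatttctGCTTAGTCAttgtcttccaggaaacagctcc
TXNRD1 at chr12:104215658-104215710: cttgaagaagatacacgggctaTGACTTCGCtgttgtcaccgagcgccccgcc

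**Figure D3:**
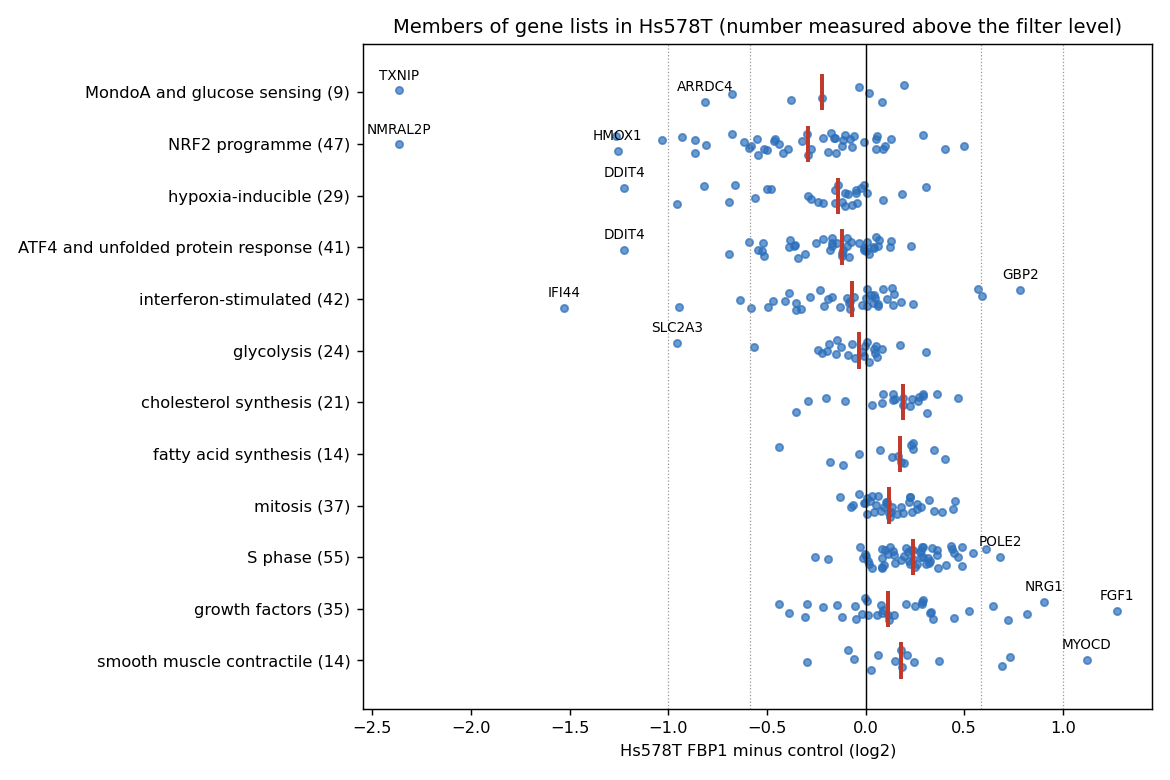
Change of each member of 12 gene lists in Hs578T, as the FBP1 array minus the control array in log2 units; each point is a gene, red bars are list medians and dotted lines mark 1.5-fold and 2-fold. NRF2 programme genes lie to the left of 0 with a median of −0.29 and S phase genes to the right with a median of 0.24.

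Not all oxidation and detoxification genes were lower. AOX1, aldehyde oxidase, had the largest increase after FBP1, from 7.07 to 9.04 (1.96). ALDH1A3, which makes retinoic acid and is used as a breast stem cell marker, was 10.15 and 10.86 (0.71), or 0.42 as the mean of its probe sets. In the other direction CYP4F11, a fatty acid hydroxylase gene, was 8.38 and 6.71 (−1.67), next to the long noncoding gene UCA1 (8.20 and 7.16, −1.04). CYP1B1 was 9.23 and 8.44 (−0.79). Tryptophan breakdown showed 2 lower genes, TDO2 (9.79 and 8.25, −1.54), the dioxygenase that opens the kynurenine pathway, and KYNU (6.72 and 5.85, −0.87), kynureninase, while IDO1 (9.20 and 8.98, −0.22), the other entry enzyme, stayed within 1.5-fold. KYNU was dim, and held at the filter level its change was −0.56.

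DNA replication genes were higher together, each by little. Of 55 S phase genes, all of which passed the filter, 50 were above 0, against 54.9% of all genes, and the median was 0.24. POLE2, a subunit of DNA polymerase epsilon, was 9.21 and 9.89 (0.68) and SLC29A1, a nucleoside importer, 10.32 and 10.92 (0.61); these were the 2 past 1.5-fold (1.39% of all genes were). DUT, which keeps uracil out of DNA, was 9.50 and 10.05 (0.55). All 11 genes whose symbols begin with MCM were above 0, with a median of 0.28, and MCM2 was 10.04 and 10.47 (0.44). That family was taken by symbol and holds replicative helicase genes, but also the antisense gene MCM3AP-AS1, so it is not a list of helicase genes alone. Nucleotide supply genes had the highest median of the 4 roles, 0.40 over 6 genes. The direction held for small changes in many genes rather than for large changes in a few.

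The E2F sites TTTGGCGC and TTTCCCGC, on either strand, occurred in 2.27% of all promoters, in 4.10% of genes that passed and have a promoter, and in 23 of 46 such S phase genes. E2F factors are known to drive this class of genes. S phase genes with a site had a median of 0.28 and the 23 without one 0.24. Over all genes that passed, those with a site had a median of 0.03 and those without 0.02. The 3 members with the largest increases and a site before a start are shown, DUT (0.55), UHRF1 (10.55 and 11.05, 0.49), which maintains DNA methylation, and GINS2 (12.59 and 13.08, 0.49), a helicase subunit. GINS2 is on the minus strand and the others are on the plus strand of GRCh38.p14, with the site in capitals as read along the gene.
DUT at chr15:48332148-48332196: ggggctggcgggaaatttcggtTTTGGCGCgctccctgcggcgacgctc
UHRF1 at chr19:4909465-4909500: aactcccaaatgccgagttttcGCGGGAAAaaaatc
GINS2 at chr16:85688956-85689007: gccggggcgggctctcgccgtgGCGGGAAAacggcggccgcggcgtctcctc
UHRF1 had several probe sets, and their mean differed by 0.24.

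Mitotic genes leaned the same way, with 31 of 37 above 0, a median of 0.12 and none past 1.5-fold. MYBL2 was 11.42 and 11.87 (0.45), NUF2, a kinetochore protein, 11.07 and 11.51 (0.44), and FOXM1, the factor that drives G2 genes, 11.68 and 11.96 (0.28). CDKN1A, the inhibitor p21, was 9.99 and 9.43 (−0.56). The list of 9 cell cycle inhibitors had a median of −0.05. In MDA-MB231 the S phase list had a median of −0.08, with 44 of 55 genes below 0, so the lists lay on opposite sides of 0 in the lines; that difference was not tested.

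Stress-responsive genes were lower. The ATF4 and unfolded protein response list had 30 of 41 genes below 0 and a median of −0.12, and its 8 stress effectors had a median of −0.54. DDIT4, which shuts down mTORC1, was 10.67 and 9.45 (−1.22). TRIB3, a pseudokinase, was 9.99 and 9.30 (−0.69), CHAC1, which degrades glutathione, 11.02 and 10.43 (−0.59), and DDIT3, the factor CHOP, 10.21 and 9.69 (−0.52). Amino acid genes differed less, with a median of −0.14 over 14. SLC7A11, the cystine importer that both ATF4 and NRF2 raise, was 13.37 and 12.86 (−0.51).

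The hypoxia-inducible list shared DDIT4 and SLC2A3 with the lists above. Of 29 genes, 25 were below 0, with a median of −0.14, and 5 were at least 1.5-fold lower, against 1.69% of all genes. In MDA-MB231 21 of the 29 were below 0 as well, with a median of −0.05 and none past 1.5-fold. NDRG1 was 11.37 and 10.67 (−0.69), ANGPTL4, a lipase inhibitor, 8.92 and 8.10 (−0.82), and KDM3A, a histone demethylase, 10.05 and 9.39 (−0.66). P4HA1 (−0.50) and P4HA2 (−0.48), collagen prolyl hydroxylases, were lower by less. EPAS1, which encodes HIF-2α, was 10.98 and 10.42 (−0.56).

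Single lower genes of other pathways are given by value, with no list behind them as a group. TP53INP1, an autophagy protein and p53 target, was 10.15 and 9.25 (−0.91), RRAGD, a GTPase that brings mTORC1 to the lysosome, 8.12 and 6.84 (−1.27), and BCL2L11, the death protein BIM, 8.49 and 7.49 (−1.0). SESN3, a sestrin, was 10.78 and 9.74 (−1.04), KLHL24 10.36 and 9.30 (−1.07) and GABARAPL1, an autophagosome protein, 9.68 and 8.53 (−1.15); these last 3 were picked out after their values were seen. The p53 list did not lean, with a median of −0.02 over 22 genes, and DDB2, a DNA repair target of p53, was higher (10.03 and 10.64, 0.61). EGR1, an immediate early factor, was 11.20 and 10.30 (−0.91).

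SFRP2 had the largest decrease of any gene. It encodes a secreted frizzled-related protein that binds Wnt ligands, and it was 10.34 in the control array and 7.78 in the FBP1 array, a change of −2.56, or 5.88-fold lower. SFRP4 was 8.04 and 7.52 (−0.52). DKK1, a secreted antagonist that blocks the LRP coreceptors, was 11.53 and 12.29 (0.77) and the receptor gene FZD2 9.88 and 10.47 (0.59). Antagonists thus differed in both directions, and the median of the 8 Wnt target genes was 0.01. SFRP2 in MDA-MB231 was 6.14 and 6.13, just under the filter level.

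TGF-β and BMP signals are read out by the ID genes, inhibitors of differentiation factors, and by the feedback protein SMAD7. ID2 was 11.85 and 10.61 (−1.25), ID1 12.05 and 11.31 (−0.75) and ID3 12.44 and 11.94 (−0.50). SMAD7 was 9.13 and 8.29 (−0.84). The 7 targets had a median of −0.48, while the receptors had one of 0.02. The 8 antagonists, SMAD7 among them, were 4 above and 4 below 0 with a median of 0.00. FST, follistatin, which traps activins, was the one at least 1.5-fold higher (10.62 and 11.71, 1.1). BMPER, which binds BMPs and is not in the list, was 8.02 and 9.27 (1.25). The ligands were mixed, with TGFB3 at −0.68 and BMP4 at 0.56.

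Ligands for receptor tyrosine kinases were among the higher genes. Of 35 growth factor and receptor genes 5 were at least 1.5-fold higher and none 1.5-fold lower, against 1.39% and 1.69% of all genes, and all 5 were ligands. FGF1 was 7.30 and 8.57 (1.27), NRG1, a ligand of ERBB receptors, 9.51 and 10.41 (0.90), BDNF 7.43 and 8.25 (0.82), FGF5 10.26 and 10.99 (0.72) and FGF2 10.66 and 11.30 (0.65). FGF genes as a family had 15 of 17 above 0, against 54.9% of all genes, with a median of 0.14. In MDA-MB231 13 of the 17 were above 0, with a median of 0.10. No receptor of the list reached 1.5-fold; AXL was 12.31 and 12.76 (0.45).

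Receptors of other kinds were higher. CMKLR1, the receptor of the chemoattractant chemerin, was 6.76 and 8.34 (1.58). PTGER4, a prostaglandin E2 receptor, was 10.18 and 10.93 (0.76), LPAR1, a receptor of lysophosphatidic acid, 9.69 and 10.42 (0.73) and F2RL2, a thrombin receptor, 11.34 and 11.99 (0.65). These were the 4 of 20 measured receptors past 1.5-fold, against 1.39% of all genes, and 17 of the 20 were above 0 with a median of 0.13, against 54.9% of all genes. In MDA-MB231 14 of the 20 were above 0, with a median of 0.12 and none past 1.5-fold. The share of all genes above 0 was not taken for that line. PLA2G4A, the phospholipase that frees arachidonic acid for prostaglandins, was 8.02 and 9.23 (1.21).

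Channel and transporter genes included large differences each way. KCNE4, a potassium channel subunit, was 9.99 and 8.10 (−1.89), the fourth largest decrease. KCNK2, a background potassium channel, was 7.13 and 8.52 (1.39), SCN3A, a sodium channel, 9.06 and 10.35 (1.29), and TRPC4, a cation channel, 8.66 and 9.69 (1.03). KCNMB1 was 7.95 and 8.88 (0.93) and SCN9A 7.12 and 7.87 (0.75). The organic anion transporter SLCO4C1 was 6.29 and 7.82 (1.53), though the mean over its probe sets differed by 0.99. Over the 335 solute carrier genes the median was −0.01, with 7 higher and 8 lower by 1.5-fold, against 1.39% and 1.69% of all genes.

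Contractile and cytoskeletal genes were partly higher. MYOCD, myocardin, the coactivator that turns on smooth muscle genes, was 10.24 and 11.36 (1.12), and its neighbour LINC00670 was 7.04 and 8.57 (1.53). CNN1, calponin, was 9.20 and 9.94 (0.73) and LMOD1, leiomodin, 7.86 and 8.55 (0.69). The abundant members differed less, with ACTA2 at 0.21 and TAGLN at 0.25. The list of 14 had 11 above 0, against 54.9% of all genes, and a median of 0.18. In MDA-MB231 12 of the 14 were above 0, with a median of 0.15 and 1 at least 1.5-fold higher, while MYOCD was under the filter level there (5.92 and 5.99). Among keratins, KRT80 (7.70 and 8.94, 1.24), KRT7 (7.91 and 9.07, 1.15) and KRT14 (0.77) were higher, while the family of 41 had a median of 0.05.

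The matrix showed single large differences with no lean of the list, whose 53 genes had a median of 0.00. HAS2, which spins out hyaluronan, was 9.39 and 10.64 (1.25) and SPP1, osteopontin, 8.98 and 7.73 (−1.25). TGM2, a crosslinking enzyme, was 9.93 and 10.63 (0.70) and TNC, tenascin-C, 8.51 and 9.19 (0.68). Proteases differed both ways. FAP, the fibroblast activation protein, was 8.01 and 6.67 (−1.34), the only one of 9 fibroblast markers past 1.5-fold. ADAMTS6 was 8.76 and 9.71 (0.95), ADAMTS1 10.59 and 11.43 (0.84) and PLAT, tissue plasminogen activator, 11.92 and 12.73 (0.81), whereas HTRA1 was 12.02 and 11.18 (−0.84) and CSTA, a cystatin that inhibits cathepsins, 8.61 and 6.94 (−1.67). FAP and CSTA were both left near the filter level.

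Single adhesion and guidance genes differed by large amounts each way, while their lists did not lean. The 34 adhesion genes had a median of 0.01, with 1 higher and 3 lower by 1.5-fold, against 1.39% and 1.69% of all genes. ADAM23, a catalytically silent integrin ligand, was 9.55 and 7.75 (−1.80). NRCAM was 7.31 and 6.02 (−1.29), CDH12, a brain cadherin, 9.06 and 7.51 (−1.55), and NEO1, neogenin, 8.24 and 6.97 (−1.28). SEMA3D was 9.27 and 10.63 (1.36), its neighbour SEMA3A 9.63 and 10.22 (0.59) and EPHB6, a kinase-dead ephrin receptor, 9.57 and 10.70 (1.13). BCHE, butyrylcholinesterase, was 8.10 and 6.35 (−1.75). Of 27 axon guidance genes 4 were higher and 3 lower by 1.5-fold, against 1.39% and 1.69% of all genes, with a median of 0.02.

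Immune genes split. SLAMF7, a receptor best known from plasma cells and natural killer cells, was 8.37 and 10.07 (1.69) and was also present in MDA-MB231 (9.73 and 10.23). IL1B was 6.41 and 7.77 (1.36), IL7R 9.07 and 10.41 (1.34) and PDCD1LG2, which encodes PD-L2, 8.67 and 9.46 (0.79). PTPRC stayed under the filter level on both arrays. HLA-DPA1, a class II chain, was 8.0 and 6.92 (−1.09), and the 14 class I peptide supply genes had a median of 0.08.

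Interferon-stimulated genes had no common direction. Of 42 genes 23 were below 0, with a median of −0.07. By 1.5-fold 3 were lower and 2 higher, against 1.69% and 1.39% of all genes. IFI44 was 7.52 and 5.99 (−1.53, or −1.36 at the filter level), its neighbour IFI44L 8.29 and 7.65 (−0.64) and BST2, tetherin, 7.13 and 6.19 (−0.95). GBP2 was 7.81 and 8.60 (0.78) and IFI27 7.27 and 7.86 (0.59). The interferon element core, GAAANNGAA on either strand, was in 8.11% of all promoters, in 8.52% of genes that passed and have a promoter, and in 23 of 33 such genes of the list. Genes on either side carried it, IFI44, IFI44L and BST2 as well as IFI27. The stretches of the 2 lower genes with the largest changes are shown with the core in capitals, IFI44 on the plus and BST2 on the minus strand of GRCh38.p14.
IFI44 at chr1:78649750-78649788: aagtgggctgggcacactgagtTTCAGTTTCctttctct
BST2 at chr19:17405730-17405782: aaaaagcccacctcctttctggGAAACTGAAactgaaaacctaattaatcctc

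Gene position was examined because the beta protocadherins differed as a block. In RefSeq order 15919 of the genes could be placed, and 28 runs of adjacent genes at least 1.5-fold different in the same direction were found, 20 lower and 8 higher. The longest held 11 beta protocadherins. Of 72 placed genes that were 2-fold lower, 29 had such a neighbour, 13 of them beta protocadherins. Of the other 59, 16 did, and of 45 placed genes that were 2-fold higher, 7 did. The share of all placed genes with such a neighbour was not computed, so these counts are a description only. Over all genes 1.39% were 1.5-fold higher and 1.69% lower. Several runs join genes of similar sequence, such as AKR1C, SNORD116 and zinc finger genes, whose values are not separate measurements. Pairs on the higher side were KRT80 with KRT7, LINC00670 with MYOCD, SEMA3A with SEMA3D, and ADAMTS1 with ADAMTS5. Pairs on the lower side were ADAM23 with ZDBF2, CYP4F11 with UCA1, IFI44 with IFI44L, TDO2 with CTSO, and ERV3-1 with ZNF117.

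Zinc finger genes gave the other blocks. KRAB-type zinc finger genes lie in clusters on chromosome 19, and many of their products silence retroelements. In medians over 25 consecutive genes, the lowest was −1.04 in the protocadherin cluster and the next 4 were all on chromosome 19, from −0.45 to −0.21, each with 22 or 23 zinc finger genes among the 25. Windows overlap and are not independent; over all 15367 of them the median was 0.02 and the lowest percentile ended at −0.17. The 220 ZNF genes on chromosome 19 had a median of −0.18, with 170 below 0 and 15 at least 1.5-fold lower, against 1.69% of all genes. The 236 ZNF genes elsewhere had a median of −0.04, and 5 were 1.5-fold lower. ZNF737 was 9.18 and 8.13 (−1.05), ZNF90 9.13 and 8.18 (−0.96) and ZNF682 7.43 and 6.53 (−0.90). On chromosome 7 ZNF117 was 8.16 and 6.65 (−1.51), and ERV3-1, the endogenous retrovirus envelope gene whose transcript reads into it, 10.50 and 9.23 (−1.27). Zinc finger genes resemble each other, and probes may bind several. In MDA-MB231 the chromosome 19 genes had a median of −0.07, with 165 of 220 below 0.

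**Figure D4:**
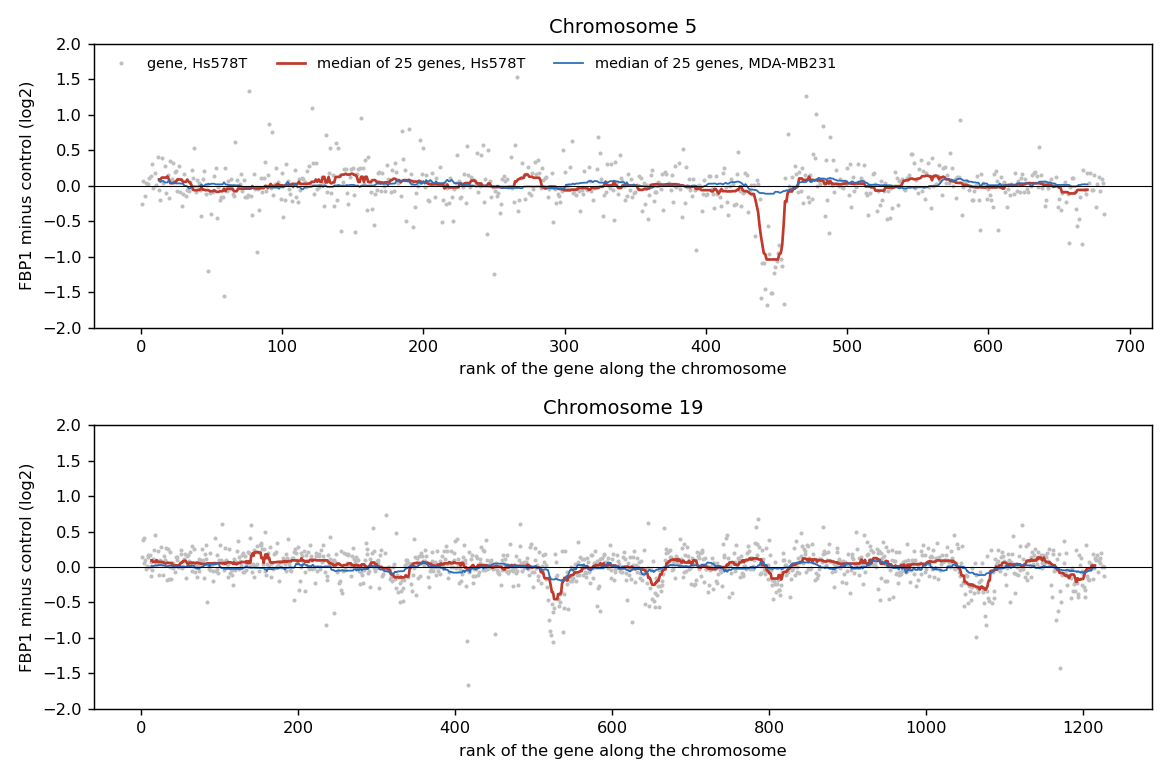
Change of genes along chromosomes 5 and 19, ordered by position, as FBP1 minus control in log2 units; grey points are genes in Hs578T and lines are medians over 25 consecutive genes, red for Hs578T and blue for MDA-MB231. The protocadherin cluster reaches −1.04 on chromosome 5, and zinc finger clusters form the dips on chromosome 19, the deepest at −0.45.

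Small RNAs were read through probe sets for their genes or precursors, so mature forms were not measured. The SNORD116 snoRNAs come from the imprinted region of chromosome 15 that is lost in Prader-Willi syndrome. Of 40 SNORD116 and SNORD115 genes 6 passed the filter, all SNORD116, and all 6 were lower, led by SNORD116-20 (12.13 and 10.94, −1.19) and SNORD116-21 (10.77 and 9.73, −1.04). They are near-identical copies from 1 host transcript and not separate measurements. The other 34 had means under the filter level and were left out, so the 6 describe the brighter members only. The median of the 6 was −0.75, and over the settings tried the family median ran from −0.76 to −0.14. In MDA-MB231 SNORD116-20 was 5.18 and 5.26, under the filter level, so it passed the filter through its Hs578T values.

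Of 164 microRNA genes matched to RefSeq, 72 passed the filter, with a median of 0.10. At least 1.5-fold lower were 2 of them, against 1.69% of all genes. MIR186 was 8.20 and 7.33 (−0.87) and MIRLET7A2 9.81 and 9.12 (−0.69). The next were MIR222 (7.98 and 7.46, −0.52) and MIR221 (9.13 and 8.67, −0.46), which lie together on chromosome X. The mature forms of the latter are shown with let-7a because miR-221 and miR-222 share their seed, bases 2 to 8, given in capitals.
hsa-miR-222-3p: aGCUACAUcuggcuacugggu
hsa-miR-221-3p: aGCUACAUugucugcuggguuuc
hsa-let-7a-5p: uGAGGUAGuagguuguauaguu
A target of let-7 was not examined, and a change in a precursor signal of this size says nothing about the mature pool.

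Few of the large differences were shared with MDA-MB231, where 7 genes were 2-fold higher (0.0439%) and 3 lower (0.0188%). FBP1 was the only gene 2-fold higher in both lines, and no gene was 2-fold lower in both. At 1.5-fold the counts in MDA-MB231 were 48 higher (0.301%) and 52 lower (0.326%), and 5 genes were higher in both lines, which is 2.25% of the Hs578T list and 10.4% of the MDA-MB231 list. They were FBP1, IL1B, ADAMTS1, BNC2 and MGAM. Another 5 were lower in both, TXNIP, KYNU, SPP1, PLXDC2 and ZNF117. In Hs578T 1.39% of all genes were 1.5-fold higher and 1.69% were 1.5-fold lower. Of the 46 genes 2-fold higher in Hs578T, 43 were within 1.5-fold in MDA-MB231, as were 69 of the 73 lower ones. Over all genes only 0.301% were 1.5-fold higher and 0.326% lower in that line, so nearly all of any set of genes would lie within it. On both MDA-MB231 arrays 6 of the 46 and 10 of the 73 lay under the filter level.

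**Figure D5:**
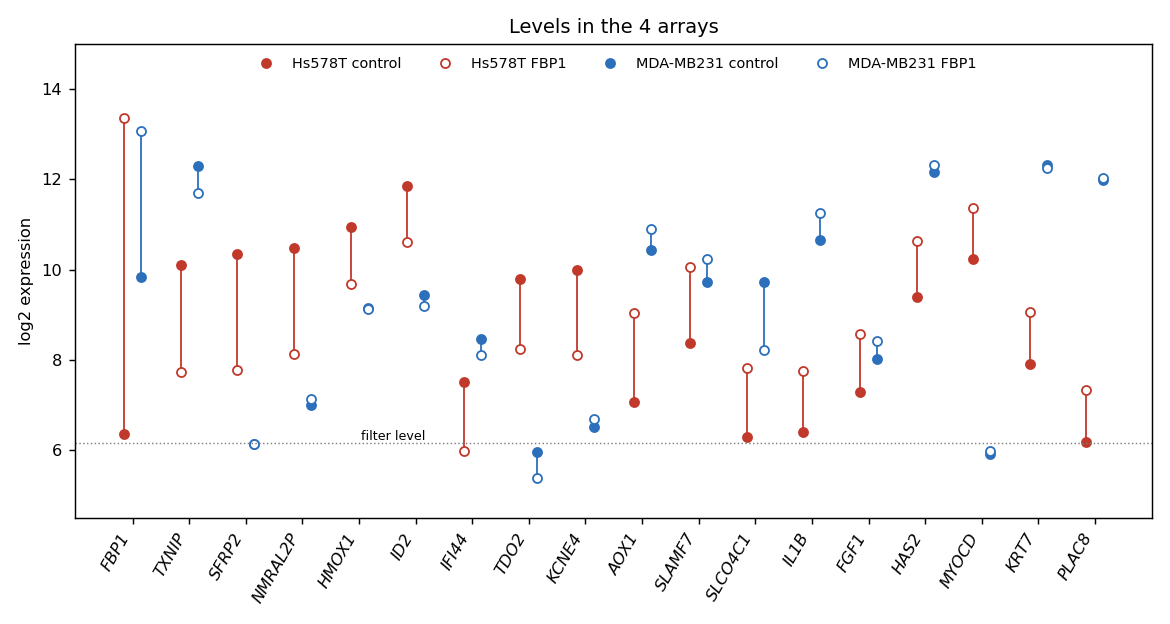
Log2 expression of 18 genes in the 4 arrays, red for Hs578T and blue for MDA-MB231, filled for control and open for FBP1, with the filter level as a dotted line. FBP1 reaches 13.35 and 13.07 in the FBP1 arrays. The genes were picked from those past 2-fold in Hs578T. That most of the others differ less in MDA-MB231 thus follows in part from the choice. IL1B and TXNIP are past 1.5-fold in the same direction in both lines, and SLCO4C1 differs in opposite directions.

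Some of the higher genes were ones that MDA-MB231 expresses strongly. KRT7 was 12.33 in the MDA-MB231 control array, PLAC8 11.98 and IL1B 10.66, each at least 16-fold above the Hs578T control array. Of the 38 genes that far apart, 26 were above 0 in Hs578T, against 54.9% of all genes, with a median of 0.13. At least 1.5-fold higher were 8 of the 38, against 1.39% of all genes. The Hs578T control value both chose these genes and entered their change, so a low reading there favours an increase. The counts are thus a description only. The filter used the mean of all 4 arrays, so such genes could pass through MDA-MB231 alone, and 13 of the 38 lay under the filter level on both Hs578T arrays. Of the 21 whose mean over the Hs578T arrays reached that level, 13 were above 0, with a median of 0.08, and 5 were at least 1.5-fold higher. The brightest of the 38 were not raised alike: LAPTM5 (13.25 in the MDA-MB231 control) was 6.69 and 6.77 in Hs578T (0.08), CDCP1 7.30 and 7.01 (−0.29) and TNFSF10 6.23 and 6.08 (−0.15), whereas SLC14A1 was 6.38 and 7.20 (0.82) and ANXA3 5.01 and 5.83 (0.83). Without the 38 genes, 43 were 2-fold higher and 73 2-fold lower. What part RNA or cells of the other line had in these increases was not tested.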

How the data were processed

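Total RNA of 4 cultures was measured on Affymetrix arrays, 1 array per group, with groups taken from the labelled line and construct. The authors deposited log2 expression values for 33297 probe sets, made with the Affymetrix Expression Console, 1.1.2800.28061, per the submitters' processing notes. The summarization and normalization steps are not stated in the sources used here. Values ran from 2.40 to 14.81, from which the log2 scale was taken. If the arrays were scaled to each other, a change in total RNA per cell would be hidden. The number of arrays limits the precision of every value.

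The platform annotation named the probe sets, with 19460 listing 1 gene, 1754 several and 12083 none. Of the first, 19429 matched a current Entrez gene. Where a gene had more than 1 probe set, the brightest over the 4 arrays stood for it. Genes under the 25th percentile of probe set means were left out. Changes were taken in Python 3.11.15 with numpy 2.4.6 and pandas 2.3.3, and the counting was tested on simulated data. Gene order, promoters and microRNAs came from RefSeq tables (GRCh38.p14), which gave neighbours, motif counts over all listed promoters and the printed sequences.

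The genes, lists and families were chosen with earlier results of these data known. Named genes were FBP1, the 35 largest changes each way, up to 8 members of each of the lists and up to 4 of each family with the largest changes, the genes beside the 2-fold line, cell type markers and genes 1.5-fold different in opposite directions in the lines. Others were named after their values were seen: PER3, GCLM, TXNRD1, GSTP1, NFE2L2, KEAP1, AKR1E2, UCA1, SESN3, KLHL24, GABARAPL1, ADAMTS5, BNC2, MGAM, MIR221, LAPTM5, CDCP1, TNFSF10, SLC14A1 and ANXA3, and other members given with their list. Alternatives covered the filter, scaling between arrays, the choice of probe set, a floor for dim values, the size threshold and unnamed probe sets.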

Additional observations from a re-analysis of the deposited data

Results flagged for a closer look

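In Hs578T 10 genes differed by at least 1.5-fold in one direction and in MDA-MB231 by at least 1.5-fold in the other. With 1 array a group, none of these contrasts was tested. SLCO4C1, an organic anion transporter, differed by 1.53 in Hs578T and −1.51 in MDA-MB231, the only one past 2-fold in both. The decoy receptor gene TNFRSF11B differed by 0.90 and −0.68, and the histone gene H2BC1, which has similar copies, by 0.75 and −0.60. The others were lower in Hs578T and higher in MDA-MB231. ZNF667-AS1, an antisense transcript, differed by −1.43 and 0.77, and on both MDA-MB231 arrays it lay under the filter level. GPNMB, a melanosomal glycoprotein gene, differed by −0.93 and 0.90, and HEY1, a Notch target, by −0.80 and 0.72. CTSO, a cathepsin gene, differed by −0.78 and 0.63 and SCG5, a secretory granule chaperone gene, by −0.77 and 0.62. STEAP1B differed by −0.62 and 0.80 and the formin gene DIAPH2 by −0.61 and 0.95.

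Probe sets with no gene or several genes in the annotation entered no gene result. Of 8136 above the filter level, 9 were at least 2-fold higher in the FBP1 array of Hs578T (0.111%) and 39 at least 2-fold lower (0.479%), with changes from −1.98 to 1.70.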

How the results depend on the processing

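No paired analysis was possible because each group had 1 array, and for the same reason no array could be left out. The count of 2-fold higher genes ran from 33 to 50 over the other filters, scalings, probe set rules and the floor, and that of 2-fold lower genes from 43, with the filter at the 50th percentile, to 83, with lowess centring. At 1.5-fold 222 genes were higher and 269 lower. Counting all probe sets gave 55 higher and 116 lower. Under quantile normalization, median centring and lowess centring, 118 of the 119 genes past 2-fold kept that size, and the median change of all genes lay between 0.00 and 0.02. No change past 1.5-fold reversed its sign for the named genes under the settings tried. The changes of FBP1, the NRF2 programme, S phase, hypoxia-inducible and beta protocadherin lists moved by under 0.1. Elsewhere 41 values of lists and single genes moved by more. Without the beta protocadherin genes, a choice made after the data were seen like the removal of genes bright in MDA-MB231, 60 genes were 2-fold lower.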

Other observations

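Some of the larger differences belong to no list. The circadian repressor genes PER3 (8.87 in the control array and 9.96 in the FBP1 array, 1.09) and PER2 (8.19 and 9.18, 0.99) were higher, and PER1 (8.37 and 8.62) differed by 0.25. DLX5 (10.12 and 9.29, −0.84) and its neighbour DLX6 (9.59 and 8.98, −0.61), homeobox genes of bone and skull, were lower. STEAP2 (8.71 and 7.59, −1.12) and STEAP1 (8.54 and 7.58, −0.96), metal reductase genes side by side on chromosome 7, were lower too. PTCH1, the Hedgehog receptor and target, was 7.95 and 6.93 (−1.02), and LY96, the partner of TLR4 in sensing endotoxin, 10.43 and 9.33 (−1.11). GDA, guanine deaminase, was 8.0 and 9.24 (1.24). SLC16A7, a monocarboxylate transporter with high affinity for pyruvate, was 9.98 and 10.86 (0.87). These genes were picked out after their values were seen, and none has a replicate.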
